A study of Homo sapiens with 4 samples.

Results

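The genes described here are 10 immediate early genes of 22Rv1 cells: the zinc finger transcription factors EGR1, EGR2 and EGR3, the orphan nuclear receptors NR4A1 and NR4A2, the Krüppel-like factors KLF4 and KLF6, the early response gene IER2, and the feedback regulators DUSP1 and ZFP36. They were taken by gene name from a count table of 57014 named rows, where each of these names occurred once, and all 10 were among the 18043 genes that passed the filter on low counts. 22Rv1 is an androgen receptor-positive line derived from a human prostate carcinoma. Poly(A)-selected RNA was sequenced from 2 CD276 knockout libraries, which carry sgCD276 in their names, and 2 control libraries, which have the wild-type genotype and carry sgGFP. Both groups hold replicates 1 and 3, called biological replicates by the submitters and grown in RPMI-1640 with fetal bovine serum, and no treatment or time is labelled. CD276 encodes the checkpoint ligand B7-H3, which the study considers as a second target beside DNA methylation in prostate cancer. The labels do not say whether the knockout cells are a clone or a pool, or whether the replicates are separate cultures, so a p-value measures the spread between these libraries only. The 10 genes were chosen with their values in these libraries known, above all because the 2 knockout libraries differ in them. Their values and the fits below are therefore a description and support nothing.

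Immediate early genes need no new protein synthesis for their induction. Growth factors, serum and stress activate ERK and other kinases, which act on factors already bound at the promoters, such as SRF with its ternary complex partners at CArG boxes and CREB at cyclic AMP response elements (CRE). The transcripts are short-lived, so their level can change quickly in both directions. EGR, NR4A and KLF proteins then act as transcription factors on later genes, while DUSP1 dephosphorylates the MAP kinases and ZFP36 promotes the decay of AU-rich mRNAs.

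Promoter sequences were read from RefSeq on GRCh38.p14 for the 8 of the 10 genes that the table held, in 11 windows of 300 bases from 250 before to 50 after a transcript start. EGR1, EGR2 and DUSP1 are shown because they hold the clearest matches to the response elements named above. The 250 bases before each start are printed 5′ to 3′ on the gene's strand, with CArG boxes and the CRE core (TGACG on either strand, so also CGTCA) in capitals.
EGR1, chr5:138465229-138465478, plus strand: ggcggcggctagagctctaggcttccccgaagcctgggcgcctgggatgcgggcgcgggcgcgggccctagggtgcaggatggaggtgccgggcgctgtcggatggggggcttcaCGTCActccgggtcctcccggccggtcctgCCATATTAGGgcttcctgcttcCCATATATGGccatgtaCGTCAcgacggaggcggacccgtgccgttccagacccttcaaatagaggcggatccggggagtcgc
EGR2, chr10:62816367-62816616, minus strand: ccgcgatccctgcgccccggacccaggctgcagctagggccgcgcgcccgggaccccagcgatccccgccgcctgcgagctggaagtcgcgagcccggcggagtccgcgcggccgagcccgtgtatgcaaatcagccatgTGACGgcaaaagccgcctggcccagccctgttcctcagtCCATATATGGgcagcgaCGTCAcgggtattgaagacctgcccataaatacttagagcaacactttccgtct
DUSP1, chr5:172771196-172771445, minus strand: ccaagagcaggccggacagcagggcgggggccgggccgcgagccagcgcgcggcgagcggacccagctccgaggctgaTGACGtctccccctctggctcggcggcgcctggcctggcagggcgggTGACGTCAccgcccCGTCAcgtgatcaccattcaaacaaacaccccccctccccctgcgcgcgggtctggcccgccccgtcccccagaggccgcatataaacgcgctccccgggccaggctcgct

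EGR1 had 2 CArG boxes, CCATATTAGG at -105 and CCATATATGG at -83, with CRE cores at -135 and -66 (positions count the first base of the match from the RefSeq start). Of the 3 EGR2 windows, the one of the most downstream start held the same CCATATATGG at -71, with CRE cores at -110 and -54. The CArG box was searched on both strands and occurred in 1.29% of all 35116 promoter windows, against 2 of the 11 windows of these genes. DUSP1 had the full CRE, TGACGTCA, at -125, which contains the core on each strand, and 2 further cores at -172 and -111, with TATAAA at -30. The full CRE occurred in 1.85% of all windows, the core in 24.6% and TATAAA in 11.5%, while 5 of the 11 windows had the core, those of EGR1, EGR2, KLF4, IER2 and DUSP1. The GC box (GGGCGG, either strand) was in 8 of the 11 windows, and in 45.0% of all windows. KLF6 was alone among the 8 in holding an EGR site (GCGGGGGCG or GCGTGGGCG, either strand; 5.77% of all windows), at -65. These matches are letters in a window and do not show that a factor bound there.

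The targeted gene was reduced but still present in the knockouts. CD276, at 73683966 to 73714518 on the plus strand of chromosome 15 (GRCh38, GENCODE 29, as for all positions below), had 621 and 679 counts in the knockouts and 1058 and 1054 in the controls. This corresponded to 23.6 and 26.2 normalized CPM (the count scaled to a common library size with the TMM factor) in the knockouts, against 47.4 and 54.4 in the controls. Knockout over control was -1.03 ± 0.16 on the log2 scale (SE, n = 2 libraries per group; edgeR adjusted p = 0.00561), and the call was lost without control replicate 3 (-0.92, edgeR adjusted p = 0.0812). An edit of the coding sequence can leave the transcript in place.

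The library totals were 24437926 and 25802417 counts in the knockouts and 23206271 and 20079050 in the controls, so that 1 unscaled CPM stood for 20.1 to 25.8 counts. Fewer cells expressing a gene and less RNA per cell cannot be told apart in such bulk libraries. All 10 prostate luminal markers were detected in every library, and their sum was 3182 and 3947 normalized CPM in knockout replicates 1 and 3, against 3990 and 3907 in the controls. Of the leukocyte, fibroblast and endothelial markers, CD3E, PECAM1 and CDH5 were at 0 in every library and PTPRC at 0 to 3 counts. Summed fibroblast markers, nearly all COL1A1, were at 20.5 and 33.6 normalized CPM in knockout replicates 1 and 3, against 51.7 and 47.7 in the controls. Mitochondrial genes took 1.46% and 1.78% of the knockout counts and 5.84% and 6.15% of the control counts. The knockout libraries were at least 2-fold apart in 8.33% of the genes tested, against 3.11% for the control libraries. The part of these differences in the results below was not tested.

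In knockout replicate 3 most of the immediate early genes stood above the controls, while in knockout replicate 1 most stood near or below them. EGR2, at low counts, was at 2.68 times the control mean in knockout replicate 1. Differences on the log2 scale were taken between log2 CPM values with a prior count of 2. Relative to the control mean, the median of the 10 genes was 0.016 in knockout replicate 1, and it was 1.32 in knockout replicate 3, against -0.05 and 0.01 over all genes tested. All 10 were higher in knockout replicate 3 than in knockout replicate 1, as were 50.2% of all genes, and 8 of them by at least 2-fold, as were 4.83% of all genes. The control libraries were less than 2-fold apart for all 10 genes, with differences of -0.13 to 0.45 between control replicates 3 and 1. Knockout replicate 3 was above both controls in 9 of the 10, as for 44.3% of all genes, and at least 2-fold above the control mean in 6, as for 5.17%. Knockout replicate 1 was above both controls in 3 of the 10 (41.6% of all genes), below both in 4 (47.1%) and between them in 3, and it was at least 2-fold below the control mean for EGR1 alone (10.9%). For 0 of the 10 were both knockouts below both controls (34.1%). The rule used these libraries, so nothing is read from the comparison with all genes.

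**Figure D1:**
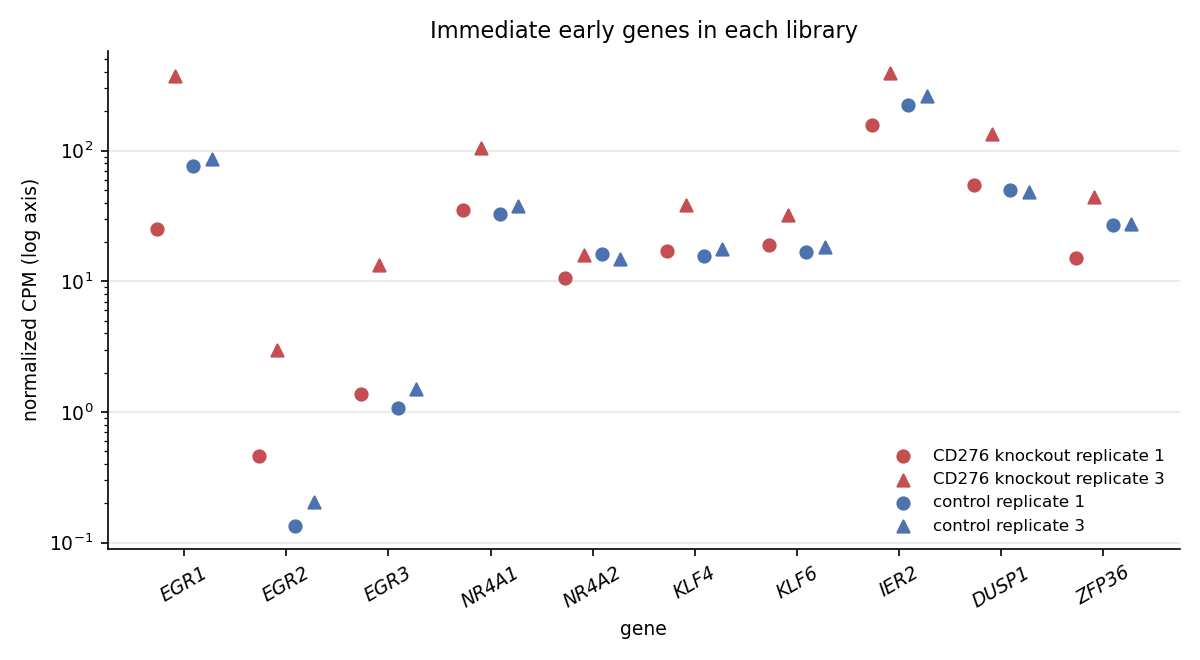
Normalized CPM (log axis) of the 10 immediate early genes in the 2 CD276 knockout libraries (red) and the 2 control libraries (blue), with circles for replicate 1 and triangles for replicate 3. Knockout replicate 3 is the highest library for 9 genes, and for NR4A2 it lies between the controls.

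The EGR genes differed most between the knockout libraries. EGR1 (chromosome 5, 138465490 to 138469315, plus strand), which binds GC-rich sites and links growth signals to later transcription, had 25.3 and 372 normalized CPM in knockout replicates 1 and 3, against 76.8 and 85.5 in control replicates 1 and 3. Knockout replicate 1 was thus below both controls, at 0.312 times their mean, and knockout replicate 3 was above both, at 4.58 times their mean. The knockout libraries differed 14.7-fold (95% exact binomial interval 13.6 to 15.9, counting error only), the third largest excess of knockout replicate 3 over knockout replicate 1 among the genes tested. Fitted over all 4 libraries, the change was 1.29 ± 1.60 on the log2 scale (edgeR adjusted p = 0.637), with an error larger than the change.

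EGR3 (chromosome 8, 22687659 to 22693302, minus strand), a relative of EGR1 that is itself induced by growth and antigen receptor signals, had 1.37 and 13.4 normalized CPM in knockout replicates 1 and 3, against 1.07 and 1.497 in the controls. Its counts were 36 and 347 in the knockouts and 24 and 29 in the controls. Knockout replicate 1 lay between the controls and knockout replicate 3 was 10.4 times their mean. The ratio between the knockouts was 9.78 (6.93 to 14.2), and the fitted change was 2.53 ± 0.86 (edgeR adjusted p = 0.0649).

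EGR2 (chromosome 10, 62811996 to 62919900, minus strand), best known for its part in myelination and in hindbrain patterning, was close to undetected in the controls. It had 12 and 77 counts in knockout replicates 1 and 3, against 3 and 4 in the controls, or 0.457 and 2.98 normalized CPM against 0.134 and 0.207. Both knockouts were above both controls. The ratio to the pooled controls was 2.72 in knockout replicate 1, with a counting interval of 0.988 to 8.16 that includes no difference, and 17.7 (8.21 to 45.6) in knockout replicate 3. It was the only one of the 10 genes that passed the test (log2 fold change 3.31 ± 0.95, edgeR adjusted p = 0.0389), which 22.8% of all genes passed. EGR2 was among the genes tested only through the knockout libraries, its control counts being too low for the filter. This call is therefore a description and supports nothing. The call was lost without control replicate 1 (edgeR adjusted p = 0.172), without control replicate 3 (0.0938) and without knockout replicate 3 (0.256), and its adjusted p over all alternatives ran from 1.41e-11 to 0.256. EGR4, the remaining member of the family, was too low to be tested, with 10 and 38 counts in the knockouts and 8 and 5 in the controls.

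The NR4A receptors, which act without a known physiological ligand, had different orders of the libraries. NR4A1 (chromosome 12, 52022832 to 52059507, plus strand) had 35.0 and 104 normalized CPM in knockout replicates 1 and 3, against 32.5 and 37.7 in the controls. Knockout replicate 1 lay between the controls, and knockout replicate 3 was 2.96 times their mean. NR4A2 (chromosome 2, 156324432 to 156342348, minus strand), required for dopaminergic neurons, had 10.5 and 15.965 normalized CPM in the knockouts, against 16.2 and 14.8 in the controls. For NR4A2 it was knockout replicate 1 that stood apart, at 0.679 times the control mean, while knockout replicate 3 lay between the controls. Knockout replicate 3 over replicate 1 was 2.97 (2.76 to 3.21) for NR4A1 and 1.52 (1.30 to 1.78) for NR4A2, with intervals for counting error only. The fitted changes were 0.98 ± 0.40 for NR4A1 and -0.23 ± 0.23 for NR4A2 (edgeR adjusted p = 0.108 and 0.498). NR4A3 was counted with the paralogs below.

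KLF4 and KLF6, zinc finger factors of epithelial differentiation and of wound and stress responses, were near the controls in knockout replicate 1 and higher in knockout replicate 3. KLF4 (chromosome 9, 107484852 to 107490482, minus strand) had 17.0 and 38.1 normalized CPM in knockout replicates 1 and 3, against 15.6 and 17.7 in the controls. KLF6 (chromosome 10, 3775996 to 3785281, minus strand) had 18.9 and 32.1, against 16.9 and 18.2 in the controls. KLF4 in knockout replicate 1 lay between the controls, while KLF6 was above both in each knockout library. In replicate 1 KLF6 was 0.11 above the control mean on the log2 scale. Their fitted changes were 0.73 ± 0.33 and 0.54 ± 0.25 (edgeR adjusted p = 0.135 and 0.142).

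IER2, a nuclear protein induced early after stimulation, and ZFP36, also called tristetraprolin, shared the pattern of EGR1 at a smaller size. IER2 (chromosome 19, 13150415 to 13154908, plus strand) had 156 and 389 normalized CPM in knockout replicates 1 and 3, against 222 and 263 in the controls. ZFP36 (chromosome 19, 39406813 to 39409412, plus strand) had 15.2 and 43.8, against 26.8 and 27.5 in the controls. In both genes knockout replicate 1 was below both controls and knockout replicate 3 above both, and the knockouts differed 2.499-fold (2.41 to 2.59) for IER2 and 2.89-fold (2.58 to 3.25) for ZFP36. The fits gave 0.17 ± 0.35 for IER2 and 0.12 ± 0.39 for ZFP36 (edgeR adjusted p = 0.757 and 0.852). This order of the libraries held for 3 of the 10 genes and for 8.19% of all genes tested.

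DUSP1 (chromosome 5, 172768090 to 172771195, minus strand), the MAP kinase phosphatase whose promoter holds the full CRE, had 54.3 and 134 normalized CPM in knockout replicates 1 and 3, against 50.2 and 48.5 in the controls. It was above both controls in both knockouts, as were 3 of the 10 genes and 31.8% of all genes tested. The excess was 1.10-fold over the pooled controls in knockout replicate 1 (1.03 to 1.18) and 2.71-fold in knockout replicate 3 (2.56 to 2.86). The fitted change was 0.93 ± 0.34 (edgeR adjusted p = 0.0793). It passed in 4 of 12 alternatives, with no filter, with the replicate block, with GC and length offsets and without knockout replicate 1, and missed in 8, with an adjusted p from 1.83e-45 to 0.261 over the 12, and 0.261 by DESeq2.

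**Figure D2:**
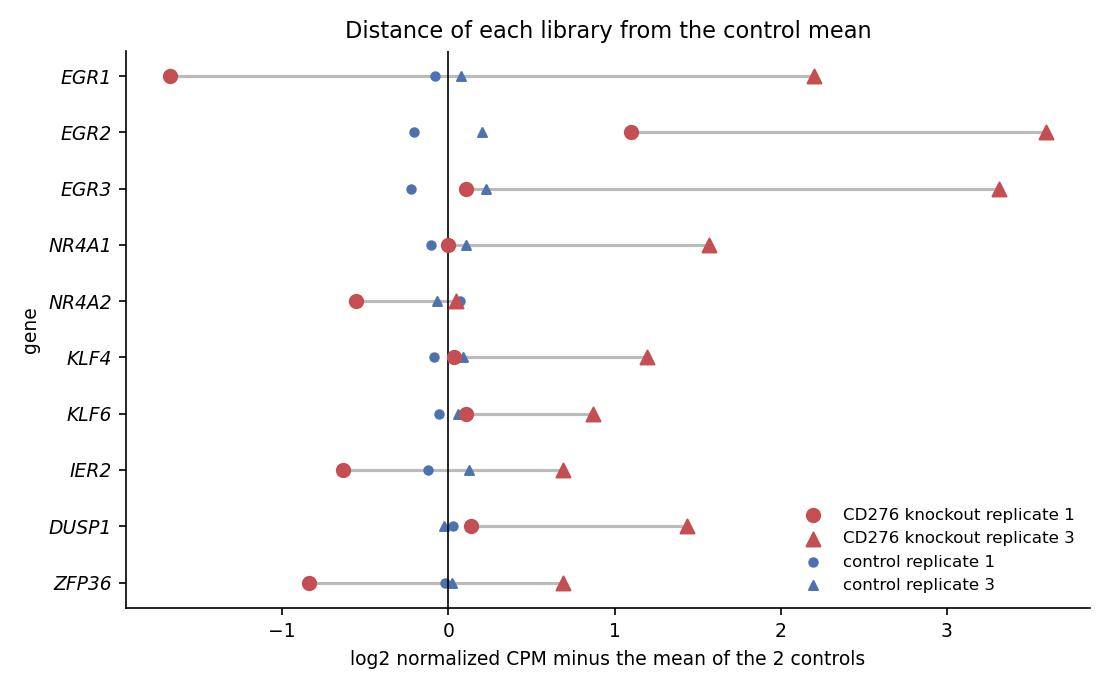
Log2 normalized CPM of each library minus the mean of the 2 controls, for each gene; large red symbols are the CD276 knockout libraries, small blue symbols the controls, circles replicate 1 and triangles replicate 3. EGR1, IER2 and ZFP36 have the knockouts on opposite sides of the controls, and EGR2 and EGR3 lie farthest to the right in knockout replicate 3, at 3.60 and 3.32.

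In the test across all 4 libraries, 1 of the 10 genes was higher and 0 were lower in the knockouts, while 22.8% of all genes were called, 9.87% higher and 12.9% lower. Before adjustment, 4 were higher and 0 lower at p under 0.05, and DESeq2 gave 1 and 0 after adjustment (3 and 0 before). The count turned on single libraries. Without knockout replicate 1, 9 genes were higher and 0 lower, NR4A2 being the exception; 45.7% of all genes were then called, 22.2% higher and 23.4% lower. Without knockout replicate 3, 0 were higher and 4 lower, namely EGR1, IER2, ZFP36 and NR4A2, when 48.3% of all genes were called, 25.2% higher and 23.1% lower. In these fits the remaining knockout library is assumed to vary like the controls, and they describe that library. EGR1 accordingly stood at 2.21 without knockout replicate 1 and at -1.61 without knockout replicate 3 on the log2 scale, IER2 0.70 and -0.57, and ZFP36 0.70 and -0.77. Without control replicate 1 or control replicate 3, 0 of the 10 were called, when 1.65% and 3.15% of all genes were, with 2 higher and 0 lower before adjustment in each case.

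Levels per kilobase of annotated exon give an approximate order of the genes. The length pools the exons of all annotated transcripts of a gene, and which transcripts were expressed was not tested. In the controls IER2 was highest, at a mean of 78.9 normalized CPM per kilobase, followed by EGR1 at 25.9, DUSP1 at 24.4 and ZFP36 at 13.5. NR4A1, KLF4, NR4A2 and KLF6 followed at 4.81, 4.54, 3.90 and 2.86, and EGR3 and EGR2 were lowest at 0.265 and 0.0462. The control values of EGR1 (24.5 and 27.2) overlapped those of DUSP1 (24.9 and 24.0), and those of NR4A1 (4.46 and 5.17) overlapped those of KLF4 (4.26 and 4.83), so neither pair has a clear order. In knockout replicate 1 EGR1 was at 8.07, below DUSP1 at 26.9, and in knockout replicate 3 EGR1 was at 119, above DUSP1 at 66.3 and near IER2 at 127. Summed over the 10 genes, the level was 334 and 1146 normalized CPM in knockout replicates 1 and 3, against 458 and 514 in the controls.

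Some counts may hold reads of other genes, the strand setting being not given in the sources used here. IER2 shares 30.8% of its exonic bases with AC011446.2 on the opposite strand, NR4A1 10.3% with AC025259.3 and EGR3 3.4% with AC055854.1. AC011446.2 and AC055854.1 had 0 counts in every library, and AC025259.3 had 0 and 19 in the knockouts and 9 and 9 in the controls. The other 7 genes share no annotated exon in GENCODE 29.

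The AP-1 subunits, some of which are induced by the same signals, had medians of -0.58 and 0.69 in knockout replicates 1 and 3 relative to the controls. In this list 10 of 12 were higher in knockout replicate 3 than in replicate 1, as were 50.2% of all genes. JUND and MAFG had both knockouts below both controls, as did 34.1% of all genes. FOSB differed most, with 1.41 and 142 normalized CPM in the knockouts against 6.18 and 6.14 in the controls, followed by FOS (7.01 and 329, against 76.2 and 75.9) and JUN (91.4 and 557, against 113 and 150). Of the 12 tested, edgeR called 0 higher and 0 lower, against 9.87% and 12.9% of all genes. Before adjustment 2 were higher and 1 lower, and DESeq2 gave 2 and 0. Over the 12 alternatives, the log2 change of FOSB ran from -2.06 to 4.53, of FOS from -3.37 to 2.13 and of JUN from -0.45 to 2.10. None of them was called with either control left out.

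**Figure D3:**
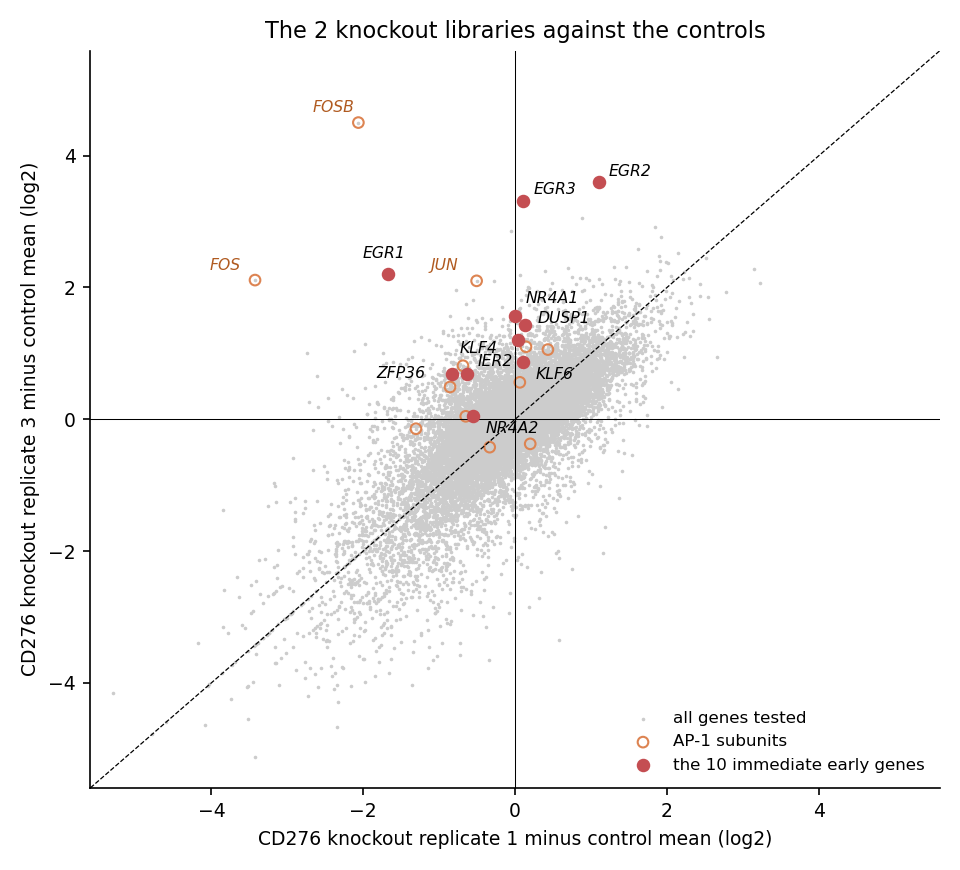
Difference from the control mean (log2) of each gene in CD276 knockout replicate 1 (horizontal) and replicate 3 (vertical); grey points are the 18043 genes tested, red points the 10 immediate early genes, orange circles the 12 AP-1 subunits, and the dashed line marks equal differences. The 10 genes all lie above the dashed line, with EGR1, FOS and FOSB at the upper left.

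Among other immediate early genes, 16 of 31 had both knockouts above both controls, as did 31.8% of all genes. By the test 7 rose, 1 fell and 23 did not pass, where 9.87% of all genes were called higher and 12.9% lower. Their median change was 0.48 on the log2 scale (-0.0045 over all genes), and 28 were higher in knockout replicate 3 than in replicate 1, as were 50.2% of all genes. Among those with at least 5 normalized CPM in a library, CTGF, CYR61 and PPP1R15A had the largest difference between the knockouts. CTGF had 1.14 and 7.23 normalized CPM, against 4.84 and 3.36 in the controls, and CYR61 6.09 and 26.5, against 9.76 and 10.4. Both encode matricellular proteins and are listed under their older symbols. PPP1R15A, which recruits protein phosphatase 1 to eIF2, had 45.0 and 119.95, against 50.9 and 48.7. None of these 3 passed (edgeR adjusted p = 0.981, 0.366 and 0.174). Unlike them, CITED2, a CBP and p300 binding protein chosen after its values were seen, rose with the knockouts alike, at 225 and 229 normalized CPM against 79.4 and 96.1 in the controls (1.37 ± 0.15, edgeR adjusted p = 0.00287). The inhibitor of differentiation ID1, the gene that fell and also named with its values seen, had 151 and 179, against 274 and 317 (-0.84 ± 0.16, edgeR adjusted p = 0.0097). RHOB, a stress-induced small GTPase also chosen after its values were seen, rose (1.15 ± 0.33, edgeR adjusted p = 0.0382) with 122 and 285, against 85.3 and 98.9. It was not called by DESeq2, which gave 8 higher and 1 lower in this list. BTG2 and CITED2 were the only calls of the list that held with either control left out.

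Family paralogs of the 10 genes included 6 that rose and 0 that fell among 27 tested (9.87% and 12.9% of all genes), and their median change was 0.24 on the log2 scale. Before adjustment 8 were higher and 1 lower, and DESeq2 gave 6 and 1. Each paralog that rose had both knockouts above both controls. KLF10, induced by TGF-beta, had 58.0 and 68.5 normalized CPM in knockout replicates 1 and 3, against 20.4 and 25.4 in the controls (1.47 ± 0.17, edgeR adjusted p = 0.00297). KLF13 had 5.22 and 4.56, against 1.03 and 1.39 (2.01 ± 0.32, edgeR adjusted p = 0.00639). KLF3, KLF9 and KLF11 rose by 0.67 ± 0.15, 0.80 ± 0.22 and 0.84 ± 0.18 on the log2 scale (edgeR adjusted p = 0.0167, 0.0319 and 0.0142). ZFP36L1, which like ZFP36 binds AU-rich elements, had 58.1 and 56.4, against 29.7 and 36.1 (0.80 ± 0.15, edgeR adjusted p = 0.0108). Among phosphatases of the list with at least 5 normalized CPM in a library, DUSP2, DUSP6 and DUSP10 had the largest gaps between the knockouts. DUSP2 had 36.9 and 87.2, against 67.6 and 61.1 in the controls. DUSP6 had 11.3 and 21.5, against 15.5 and 11.9, and DUSP10 had 20.3 and 36.7, against 25.9 and 30.05. None of them passed (edgeR adjusted p = 0.921, 0.559 and 0.948). KLF10 was called under all 12 alternatives, while KLF9 was not called with GC and length offsets. With either control left out, KLF3, KLF9, KLF11 and ZFP36L1 were not called, and KLF13 was not called without control replicate 1.

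Upstream regulators had medians of 0.34 in knockout replicate 1 and 0.057 in knockout replicate 3 relative to the controls, and 9 of 26 were higher in knockout replicate 3 than in knockout replicate 1, as were 50.2% of all genes. By the test 2 rose and 0 fell, a share of calls near the 9.87% higher of all genes, of which 12.9% were lower (5 and 0 before adjustment, and 4 and 0 by DESeq2). The genes that rose, named after their values were seen, were the ternary complex factor ELK1 (73.2 and 68.6 normalized CPM, against 35.3 and 43.8 in the controls; 0.84 ± 0.15, edgeR adjusted p = 0.00926) and the ERK kinase MAP2K1 (0.44 ± 0.13, edgeR adjusted p = 0.044). SRF itself, chosen after its values were seen, had 86.7 and 97.0 normalized CPM, against 68.4 and 78.4 (edgeR adjusted p = 0.13). The coactivators CREBBP (73.8 and 41.0, against 47.6 and 56.9) and EP300 (96.1 and 57.3, against 53.6 and 67.5) and the SRF cofactor MKL2 (37.1 and 22.3, against 18.7 and 18.1) had the largest differences between the knockouts, all higher in replicate 1, and were not called (edgeR adjusted p = 0.73, 0.319 and 0.0661). ELK1 and MAP2K1 were not called with either control left out.

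Among partners and effectors, 5 of 13 rose and 1 fell, against 9.87% and 12.9% of all genes, with a median change of 0.44 on the log2 scale. NAB2, a corepressor that binds EGR1 and is also an EGR1 target, had 30.3 and 37.2 normalized CPM in the knockouts, against 31.9 and 35.0 in the controls (0.01 ± 0.17, edgeR adjusted p = 0.961). CNOT1, the scaffold of the deadenylase that ZFP36 recruits, was higher in replicate 1 than in replicate 3, at 197 and 118, against 85.3 and 91.2 (0.84 ± 0.22, edgeR adjusted p = 0.0298). ELAVL1, an AU-rich element binding protein that stabilizes mRNAs, rose by 0.80 ± 0.15 on the log2 scale (edgeR adjusted p = 0.0108). The gene that fell, named after its values were seen, was the nuclear poly(A) binding protein gene PABPN1 (-0.90 ± 0.15, edgeR adjusted p = 0.00658). The calls among partners and effectors were lost with either control left out.

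Of genes known as EGR1 or ZFP36 targets, 1 in each list passed the test, which 22.8% of all genes passed. Among 12 EGR1 targets 1 rose and 0 fell by edgeR (3 and 0 before adjustment, and 3 and 0 by DESeq2), with a list median of 0.32 on the log2 scale. TGFB1, GDF15 and F3 were named for the largest gap between the knockouts, among targets with at least 5 normalized CPM in a library. TGFB1 had 28.8 and 64.7 normalized CPM in knockout replicates 1 and 3, against 36.7 and 43.99 in the controls (edgeR adjusted p = 0.664). GDF15 had 55.3 and 110, against 87.5 and 94.2 (edgeR adjusted p = 0.755). Both had knockout replicate 1 below and knockout replicate 3 above both controls, as did 4 of the 12 targets and 8.19% of all genes. TGFB1 is a growth inhibitory cytokine of epithelium and GDF15 a stress-induced one. The coagulation initiator F3 was instead higher in knockout replicate 1, at 12.9 and 8.08, against 14.0 and 11.1. Among 11 ZFP36 targets, which include ZFP36 itself, the hypoxia factor HIF1A rose (1.07 ± 0.16, edgeR adjusted p = 0.00581) and 0 fell. Before adjustment 4 were higher and 0 lower, DESeq2 gave 3 and 0, and the list median was 0.20. VEGFA had 168 and 222 normalized CPM, against 188 and 183, CCND1 2593 and 1985, against 1502 and 1643, and IER3 14.1 and 20.9, against 18.8 and 18.4 (edgeR adjusted p = 0.779, 0.095 and 0.785). HIF1A, named after its values were seen, was not called without control replicate 1. The EGR1 target that passed lost its call with either control left out.

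**Figure D4:**
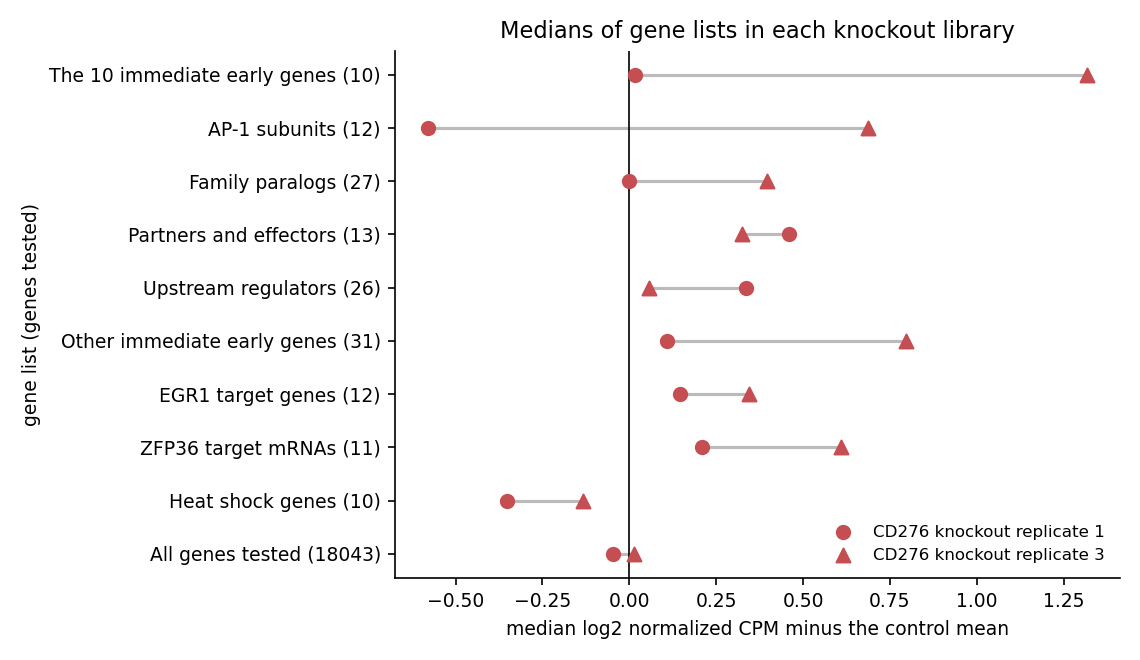
Median difference from the control mean (log2) of each gene list in CD276 knockout replicate 1 (circles) and replicate 3 (triangles), with the number of genes tested in brackets. The 10 immediate early genes run between 0.016 and 1.32 and the AP-1 subunits between -0.58 and 0.69, while all genes tested lie at -0.05 and 0.01.

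Across the whole table, the 5 genes whose values over the 4 libraries lay nearest to the median profile of the 10 were TRIB1, GPR153, WNT7B, TUBA1A and PPP1R15A, out of 11633 genes with a mean of at least 5 normalized CPM. Their root mean square difference from that profile was 0.07 to 0.12 on the log2 scale, against 0.06 for KLF4 and 1.26 for EGR2. TRIB1, a pseudokinase, had 40.3 and 89.1 normalized CPM in the knockouts, against 37.3 and 41.4 in the controls, and the tubulin gene TUBA1A had 119 and 264, against 118 and 129. With only 4 libraries, many genes can lie near any profile.

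The promoter matches were also counted outside the 10 genes. There, 5.36% of the 168 tested genes with a CArG box in a window were at least 2-fold higher in knockout replicate 3 than in replicate 1, against 3.72% of the 11413 tested genes that had a window. The share was 5.04% of 417 genes for the full CRE, 5.88% of 986 for TATAAA, 4.09% of 1344 for the EGR site, 3.67% of 8648 for the GC box and 3.23% of 4526 for the CRE core. These shares are descriptions of a pair of libraries.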

How the data were processed

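RNA libraries were sequenced as paired-end reads after poly(A) selection, per the labels' protocols. The authors deposited raw counts per gene, whole numbers whose totals differ between libraries. Trimmomatic 0.36, STAR 2.5.2b, featureCounts and Subread 1.5.2 with GRCh38 are listed in the submitters' processing notes. No annotation release or strand setting was given there.

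The 486 of 57500 rows without a name (0.0191% to 0.0290% of a library's counts) were left out. Genes were filtered with filterByExpr, scaled by TMM and compared by group with the quasi-likelihood test of edgeR 4.0.16 under R 4.3.3 (robust=TRUE, 2 residual degrees of freedom, biological coefficient of variation 0.158). Adjusted p-values are Benjamini-Hochberg values over the 18043 genes, called under 0.05. SE is the log2 fold change divided by the square root of F. Ratios between libraries carry exact conditional binomial 95% intervals. Scripts were tested on simulated data.

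The members and 8 further lists (144 genes, 136 tested) were chosen with earlier results of these data known. The rule named the members, CD276, in each list the 3 genes with the largest gap between the knockouts (at least 5 normalized CPM in a library), called paralogs, and the 5 nearest profiles; some results are not reported here. Positions are from GENCODE 29, 1-based. Alternatives were RLE, upper quartile and total scaling, no filter, DESeq2 1.42.0, robust=FALSE, the replicate block and leaving out each library. Offsets for GC content and transcript length were added after seeing the data.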

Additional observations from a re-analysis of the deposited data

How the results depend on the processing

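The count of all genes called was 4111 and ran from 312 to 9198 when a library was left out, that of the 10 genes was 1 and ran from 0 to 9, and that of the other lists was 29 and ran from 4 to 86. Without a filter the 10 genes gave 4 calls and the other lists 48, and with GC and length offsets the 10 genes gave 2. With the replicate block the 10 genes gave 5 calls (EGR2, EGR3, NR4A1, KLF4 and DUSP1). Over all genes tested, same-numbered libraries did not deviate together (r = -0.015), so the numbers are not taken as pairs. For the 10 genes themselves the median was higher in replicate 3 in both groups. Relative to the control mean it was -0.084 and 0.084 in control replicates 1 and 3, and 0.016 and 1.32 in the knockouts. CD276 missed the threshold without control replicate 3, the exception among 12 alternatives, and ran from -1.13 to -0.92 when a library was left out. ZFP36 was at -0.063 with the replicate block. Leaving out a library gave -1.61 to 2.21 for EGR1, -0.57 to 0.70 for IER2, -0.77 to 0.70 for ZFP36 and -0.49 to 0.054 for NR4A2. The median of the 10 genes in knockout replicate 1 was -0.027 with upper quartile scaling, 0.17 with library totals, and -0.11 to 0.11 against a single control, so it has no settled sign; in knockout replicate 3 it was 1.37 with library totals. Library totals shifted the median of all genes by 0.11. The cause of these moves was not tested. EGR2, at 3 and 4 control counts, is limited by depth.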

Other observations

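Heat shock genes, another rapidly induced group, were spread over both directions. Of 10 tested 2 rose and 3 fell, where 9.87% of all genes were called higher and 12.9% lower, with medians of -0.35 and -0.13 in knockout replicates 1 and 3 relative to the controls, and 0 were at least 2-fold higher in knockout replicate 3 than in replicate 1, as were 4.83% of all genes. HSPB1, a small heat shock protein, had 452 and 645 normalized CPM in the knockouts, against 894 and 1033 in the controls (-0.81 ± 0.21, edgeR adjusted p = 0.0277; not called with GC and length offsets). HSPE1, the mitochondrial co-chaperonin, had 334 and 547, against 662 and 739 (edgeR adjusted p = 0.0706), while its partner HSPD1, chosen after its values were seen, had 1562 and 1558, against 645 and 776 (1.13 ± 0.19, edgeR adjusted p = 0.00674). HSPH1 had 86.3 and 70.7, against 66.6 and 75.3 (edgeR adjusted p = 0.518). HSPA1A and HSPA1B, near-identical copies whose reads the counting could split, both fell (-0.73 ± 0.22 and -0.57 ± 0.14, edgeR adjusted p = 0.0456 and 0.0199). Neither was called with GC and length offsets, and HSPA1A was also not called with RLE scaling, library totals alone or DESeq2. The calls among the heat shock genes were lost with either control left out.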
